A study of Homo sapiens with 6 samples.

Results

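The RAB genes encode the largest family of Ras-related small GTPases, and were taken as every gene of the deposited count table whose name is RAB, a number and at most 1 further letter. This gave 63 of the 57341 named genes in the table. H295R is a human adrenocortical carcinoma (ACC) cell line that makes steroid hormones. Of the 6 libraries, 3 were labelled as parental H295R cells and 3 as H295R-PM-Ptc+ cells, a population obtained from H295R by sorting cells that carry the Hedgehog receptor Ptch1 on their surface and expanding them, so that it is 1 sorted population and not a set of independent isolates. Both populations were grown in the same medium and received no treatment, and the question was which genes differ between the sorted population and its parental line. The labels do not say whether the replicates came from separate cultures, so p-values measure the spread between these libraries, which may be technical.

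A RAB protein is a switch on the cytosolic face of a membrane. Exchange factors load it with GTP, the active form recruits effectors such as tethers and motor adaptors, and GTPase-activating proteins return it to the GDP form, which GDP dissociation inhibitors (GDI) extract from the membrane. Each RAB marks its own compartment, for example RAB1 between the endoplasmic reticulum (ER) and the Golgi, RAB5 on early endosomes, RAB11 on recycling endosomes, RAB7 on late endosomes, and RAB3 and RAB27 on secretory granules. The family therefore controls which receptors, transporters and granules reach the cell surface and which are withdrawn from it. A lipid group added by RAB geranylgeranyl transferase, with the help of an escort protein, holds the RAB on its membrane.

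Libraries held between 23264403 and 25813247 counts, and the medians of the groups, 25130630 and 24897118, were close. The selected gene goes against the labels: PTCH1 had 441, 559 and 579 counts in replicates 1, 2 and 3 labelled H295R, and 248, 326 and 319 in the H295R-PM-Ptc+-labelled ones (log2 fold change -0.81, SE 0.147, edgeR quasi-likelihood adjusted p = 0.0207). Without H295R replicate 3 the change was -0.74 and the edgeR adjusted p 0.0921, and other omissions are given below. In the study's own table of normalized values, each of the 6 columns matched a deposited column of the other group's name. Under the deposited names the cells sorted for Ptch1 protein held less PTCH1 RNA than the parental line, and under the exchanged names more. The study reports more Ptch1 protein in extracts of the sorted population than of the parental line, a measurement that bears on the naming and is not analysed here. The deposited names were kept, since the values of a library were not used to assign it to a group. Libraries are therefore called H295R-labelled and H295R-PM-Ptc+-labelled, after the deposited names. Every direction is given as H295R-PM-Ptc+-labelled against H295R-labelled, and would turn around if the deposited names are the exchanged ones. Of 10 steroidogenic markers 9 passed the filter on low counts, with a summed level of 969 to 1245 CPM (counts scaled to the TMM-adjusted library size) in the H295R-labelled libraries and 1043 to 1325 in the others, and only CYP11B1 stayed at or under 3 counts in every library. The 6 fibroblast markers summed to 8.19 to 9.38 against 9.27 to 11.2 CPM, the 5 leukocyte markers to 0.809 to 1.34 against 1.68 to 2.00 CPM with PTPRC at 0, and the 5 endothelial markers to 0.197 to 0.335 against 0.509 to 0.648 CPM. Of the steroidogenic markers, CYP21A2 (steroid 21-hydroxylase) was 1.83-fold higher in the H295R-PM-Ptc+-labelled libraries, with 15.3, 11.1 and 12.1 against 25.0, 23.3 and 22.2 CPM (log2 fold change 0.88, SE 0.126, edgeR adjusted p = 0.0067). STAR, the cholesterol importer of mitochondria, had a log2 fold change of 0.41 and CYP11A1, the side-chain cleavage enzyme, of -0.25, which passed only with replicates paired (edgeR adjusted p = 3.91e-06 and 0.001, against 0.346 and 0.391 without). The part of these differences in the RAB values was not tested.

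The promoters of 4 of the RAB genes described below are shown because these genes were among the 8 called with replicates paired, on opposite sides: RAB5A and RAB31 were lower in the H295R-PM-Ptc+-labelled libraries, RAB27A and RAB30 higher. Each sequence is the 250 bases before the RefSeq transcription start on GRCh38.p14, read 5′ to 3′ on the gene's strand. Capitals mark the GC box GGGCGG, the E-box CACGTG or the CCAAT box CCAAT, on either strand, and these motifs do not overlap one another.
RAB5A, chr3:19946847-19947096, plus strand: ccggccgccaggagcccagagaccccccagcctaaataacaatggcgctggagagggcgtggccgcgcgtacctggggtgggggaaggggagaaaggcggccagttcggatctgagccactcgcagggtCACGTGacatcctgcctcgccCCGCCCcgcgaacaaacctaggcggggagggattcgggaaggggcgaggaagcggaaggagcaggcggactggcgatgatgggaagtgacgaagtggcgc
RAB31, chr18:9708051-9708300, plus strand: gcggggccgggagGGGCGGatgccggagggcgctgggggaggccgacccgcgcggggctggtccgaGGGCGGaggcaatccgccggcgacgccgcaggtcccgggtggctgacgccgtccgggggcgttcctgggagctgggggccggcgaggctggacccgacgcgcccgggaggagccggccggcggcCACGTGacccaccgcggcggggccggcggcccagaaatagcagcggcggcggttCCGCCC
RAB27A, chr15:55319124-55319373, minus strand: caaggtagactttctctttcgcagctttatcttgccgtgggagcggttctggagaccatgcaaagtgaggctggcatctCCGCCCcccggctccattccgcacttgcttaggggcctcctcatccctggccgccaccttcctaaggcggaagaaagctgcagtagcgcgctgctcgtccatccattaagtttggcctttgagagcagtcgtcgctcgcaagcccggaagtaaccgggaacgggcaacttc
RAB30, chr11:83071898-83072147, minus strand: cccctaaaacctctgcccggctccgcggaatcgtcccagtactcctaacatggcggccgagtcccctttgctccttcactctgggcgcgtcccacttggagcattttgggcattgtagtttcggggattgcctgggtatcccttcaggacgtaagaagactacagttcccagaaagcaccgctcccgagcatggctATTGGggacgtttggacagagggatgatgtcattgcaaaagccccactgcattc

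RefSeq promoters were found for 49 of the 63 members. A GC box lay in 38 of the 49 (77.6%) against 42.3% of all 27305 promoters of this length, and the median GC content was 64.8% against 58%. The E-box lay in 5 of the 49 (10.2%) against 6.49% of all promoters. RAB5A and RAB31 were among the 5, each with 1 E-box. Of the 7 genes called with replicates paired for which a promoter was found, these 2 alone held it. RAB14, RAB6A and RAB3C, which were also lower in the H295R-PM-Ptc+-labelled libraries, lacked it, as did the higher RAB27A and RAB30. The RAB31 promoter was the richest in G and C of the 4 shown, at 82%, with 3 GC boxes. RAB5A and RAB27A held 1 GC box each, and RAB30 held a CCAAT box and no GC box. The CCAAT box was found in 13 of the 49 members (26.5%) and in 33% of all promoters, and a TATA box (TATAAA) in 3 (6.12%) against 11.1%. The binding sequence of the Hedgehog pathway's GLI factors, searched as GACCACCCA on both strands, was in none of the 49 RAB promoters and in 0.216% of all. These are matches of letters only.

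Of the 63 RAB genes, 50 passed the filter on low counts and 13 did not. RAB41 and RAB42 had no count in any library, and RAB7B, RAB19, RAB25 and RAB34 never exceeded 3 counts, the floor used here, which equals 0.117 to 0.13 CPM at these depths. RAB44 (1, 0 and 3 counts in the H295R-labelled libraries against 4, 0 and 1) and RAB37 (3, 1 and 3 against 7, 1 and 5 counts) exceeded the floor only among the H295R-PM-Ptc+-labelled libraries. RAB33A (3, 4 and 4 against 2, 3 and 3 counts) and RAB27B (1, 0 and 4 against 2, 1 and 1 counts) did so only among the H295R-labelled ones, and for all 4 genes the other group lay at or under the floor. RAB17, RAB40A and RAB1C exceeded it in both groups, and no untested member had more than 10 counts in a library. A difference in these 13 genes was not detectable at this depth. RAB25 and RAB17, which serve polarized epithelial cells, and RAB27B, the close relative of RAB27A on secretory granules, were thus at or near the floor in this line.

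Levels between genes were compared as TPM, counts per exon length scaled to the same sum in each library. Of the 63 members, 42 averaged above 10 TPM, 7 lay between 1 and 10 TPM and 14 below 1 TPM. The 5 genes RAB38, RAB7A, RAB11A, RAB1B and RAB5B, together held 41.2% of the summed RAB TPM. The sum over the family was 3505 ± 71.8 TPM (SD, n = 3) in the H295R-labelled libraries and 3691 ± 141 (SD, n = 3) in the H295R-PM-Ptc+-labelled ones, with all 6 libraries between 3453 and 3790. TPM carries no TMM factor, so differences between the groups were read from CPM and the count model.

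RAB38, which with RAB32 delivers cargo to melanosomes and other lysosome-related organelles, stood first. Its level was 372, 366 and 368 TPM in replicates 1, 2 and 3 of the H295R-labelled libraries and 514, 438 and 456 TPM in the others, above every value of the next gene in the order. RAB7A, the main late endosome RAB, followed with 313, 305 and 303 TPM against 348, 304 and 318 TPM. RAB11A of the recycling endosome had 266, 284 and 281 TPM against 297, 296 and 313 TPM, and its range overlapped that of RAB7A in the H295R-PM-Ptc+-labelled libraries. RAB1B, which acts in ER to Golgi transport, had 272, 237 and 273 TPM against 289, 257 and 303 TPM, so that its place behind RAB11A was not settled by the replicates. RAB5B of the early endosome came next with 201, 166 and 172 TPM against 199, 179 and 192 TPM, below RAB1B in every library but overlapping RAB14, which averaged 192 and 176 TPM. At the other end, RAB6B averaged 2.72 and 3.03 TPM and RAB26 2.68 and 3.18 TPM, and RAB43 and RAB6C were the tested members below 1 TPM.

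**Figure D1:**
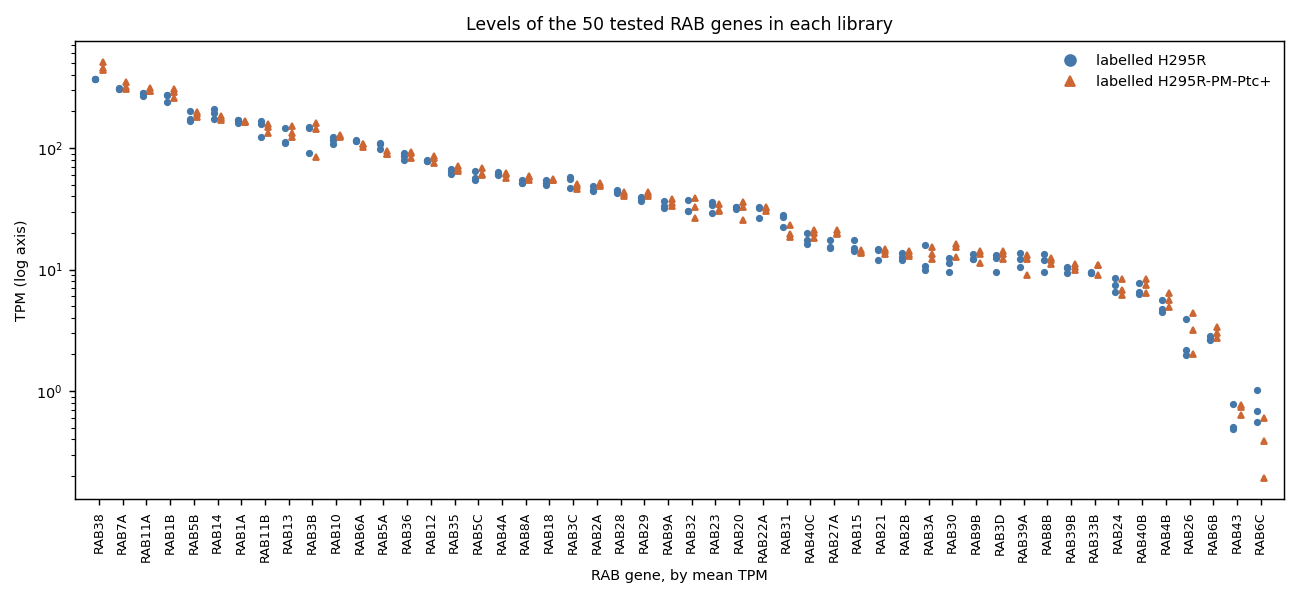
Level of each of the 50 tested RAB genes in TPM (log axis), ordered by the mean over the 6 libraries, with circles for the 3 H295R-labelled libraries and triangles for the 3 labelled H295R-PM-Ptc+. RAB38 stands highest, at 366 to 372 against 438 to 514 TPM, and for most genes the symbols of the groups overlap or nearly touch.

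Between the groups most RAB genes differed little. No member of the 50 had an adjusted p under 0.05 in edgeR, where 3.73% of all 16710 tested genes did (624 genes, 2.42% higher and 1.32% lower), and the smallest adjusted p of a member was 0.0708, for RAB5A. At an unadjusted p under 0.05 there were 9 members, 3 higher and 6 lower in the H295R-PM-Ptc+-labelled libraries, or 18% against a background of 17.3% (9.60% higher and 7.67% lower). DESeq2 called 1 member, RAB5A (adjusted p = 0.0411), against 4.37% of its tested genes (2.68% higher and 1.68% lower), and limma-voom called none against 3.64% (2.36% higher and 1.28% lower). The groups did not overlap in CPM for 12 members, 4 higher and 8 lower, which is 24% against 23.5% of all tested genes (12.4% higher and 11.2% lower).

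Same-numbered replicates of the groups deviated together, so each result was also fitted with the replicate number as a block. In that fit 8 members had an adjusted p under 0.05, or 16% against a background of 22.5% (12.1% higher and 10.4% lower). RAB38, RAB27A and RAB30 were the 3 higher ones, and RAB5A, RAB31, RAB6A, RAB3C and RAB14 the 5 lower ones. They are the 9 members with an unadjusted p under 0.05, without RAB6C. In these bulk libraries, a smaller share of cells with a transcript and less of it per cell cannot be told apart.

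Sizes were small. The fitted log2 fold change had a median of 0.02 over the 50 members and of 0.00 over all tested genes, 26 members lay above 0 and 24 below, against 50.2% of all genes above 0, and the median absolute change was 0.07 against 0.13. The fitted change was under 0.5 on the log2 scale, a 1.41-fold difference, for 49 of the 50, all but RAB6C. For 41 of the 50 the whole 95% interval of the change lay inside that limit, against 57.6% of all tested genes. In this fit without the block, the intervals of RAB3A, RAB3B, RAB6C, RAB24, RAB26, RAB30, RAB31, RAB39A and RAB43 reached beyond it. That fit therefore cannot set aside a 1.41-fold difference for these 9. With the block the standard error was smaller for some, as for RAB3B (0.0477 against 0.244, log2 fold change -0.07). The median standard error of a member was 0.0938 on the log2 scale.

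**Figure D2:**
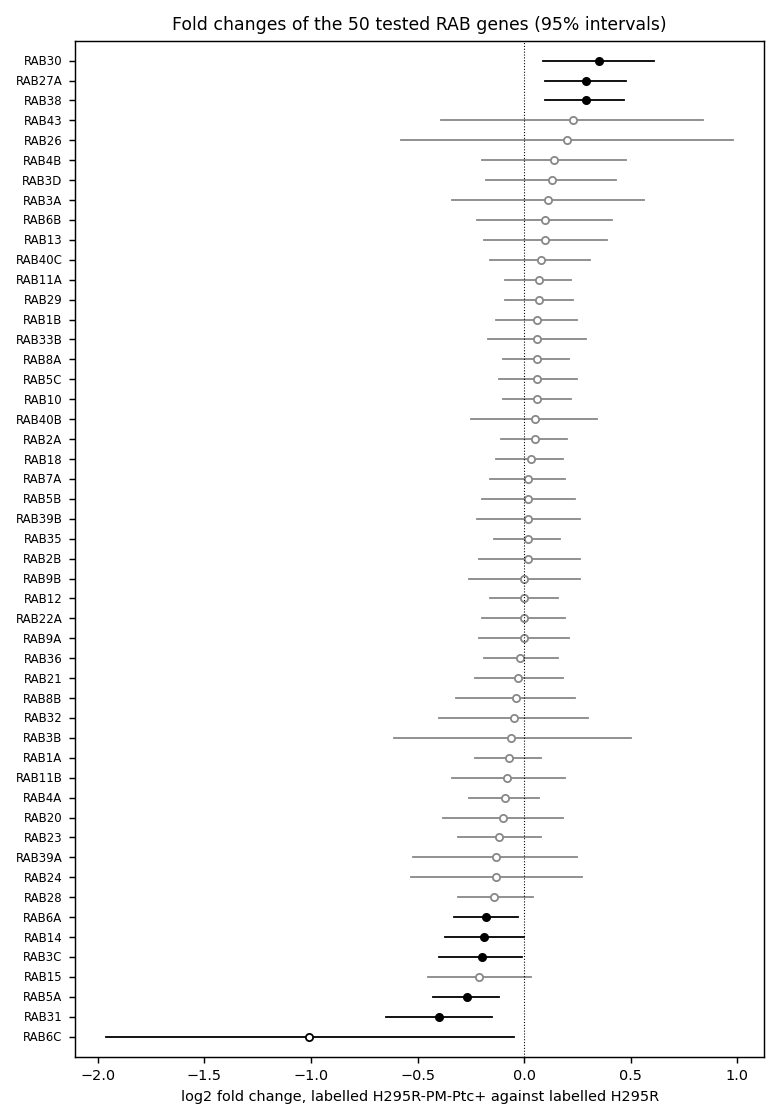
Log2 fold change of the 50 tested RAB genes, H295R-PM-Ptc+-labelled libraries against the H295R-labelled ones, with 95% intervals from the edgeR fit without the block. Black lines mark the 9 genes with an unadjusted p under 0.05, and filled points the 8 with an adjusted p under 0.05 in the fit with the replicate block; apart from RAB6C at -1.01, all points lie between -0.40 and 0.35.

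The early endosome RABs recruit the tethers and lipid kinases through which endocytosed receptors are sorted. Of 9 genes, 8 were tested, and 2 had a fold change above 0 and 6 below, with a median of -0.06 on the log2 scale and a range of -0.40 to 0.06. In the fit without the block, the 2 members of the family with the smallest p belong here, both lower in the H295R-PM-Ptc+-labelled libraries. With the block, RAB30 and RAB38 of other groups (edgeR adjusted p = 2.91e-04 and 3.10e-04), both higher, came before RAB5A (4.86e-04). No early endosome member was called higher in either fit.

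RAB5A (chr3:19947079-19985175 on hg38), which drives homotypic fusion of early endosomes, had 105, 113 and 112 CPM in replicates 1, 2 and 3 of the H295R-labelled libraries and 90.5, 91.0 and 91.4 CPM in the H295R-PM-Ptc+-labelled ones. The groups did not overlap, and the 3 second values lay within 1 CPM of each other. The means were 110 ± 4.45 and 90.9 ± 0.439 CPM (SD, n = 3), a log2 fold change of -0.27 (SE 0.0695, 95% interval -0.43 to -0.12; edgeR adjusted p = 0.0708, and 4.86e-04 with the replicate block). Genes around RAB5A were lower too: the median log2 fold change of the 100 nearest tested genes on chromosome 3 was -0.18, with 74 of the 100 below 0, and RAB5A lay 0.09 below that median. The part of the neighbourhood in the RAB5A value was not tested. The other RAB5 genes, which serve the same fusion step, had values near 0: RAB5B had a change of 0.02 (95% interval -0.20 to 0.24) and RAB5C of 0.06 (-0.12 to 0.25). RAB5A averaged 105 and 90.7 TPM, RAB5B 180 and 190 TPM, and RAB5C 58.3 and 63.4 TPM, so RAB5A was the second in level of the 3. Differences between these paralogues were not tested.

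RAB31 (chr18:9708165-9862551), also called RAB22B, acts between the trans-Golgi network and endosomes and in trafficking of growth factor receptors. It had 34.8, 43.6 and 41.3 CPM in the H295R-labelled libraries and 27.3, 29.8 and 33.6 CPM in the H295R-PM-Ptc+-labelled ones. Every value of the second group lay below every value of the first, although the nearest values lay close. The means were 39.9 ± 4.59 and 30.2 ± 3.18 CPM (SD, n = 3), a log2 fold change of -0.40 (SE 0.111, 95% interval -0.65 to -0.15; edgeR adjusted p = 0.0889, and 2.77e-04 with the block). Its neighbours on chromosome 18 had a median change of -0.02. RAB22A, its nearest relative, was level between the groups at 77.8 ± 7.45 and 77.6 ± 2.72 CPM (log2 fold change -0.00, 95% interval -0.20 to 0.19). The difference between RAB31 and RAB22A was not tested. Of the remaining members, RAB20, RAB21 and RAB24 had changes between -0.13 and -0.03, none with a p under 0.05.

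The secretory granule and lysosome-related organelle RABs were 11 genes with 9 tested, 6 above 0 and 3 below, with a median log2 fold change of 0.11 and a range of -0.20 to 0.29. Their summed level was 624, 683 and 685 TPM in the H295R-labelled libraries and 778, 746 and 790 TPM in the others, most of it from RAB38.

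RAB38 (chr11:88113242-88175467) had 153, 148 and 146 CPM in the H295R-labelled libraries and 200, 175 and 172 CPM in the H295R-PM-Ptc+-labelled ones. The groups did not overlap, and replicate 1 was the highest of each. The means were 149 ± 3.43 and 182 ± 15.3 CPM (SD, n = 3), a log2 fold change of 0.29 (SE 0.0816, 95% interval 0.10 to 0.47; edgeR adjusted p = 0.0965, and 3.10e-04 with the block). Its neighbours on chromosome 11 had a median of -0.05. RAB32, which shares its exchange factor complex and its organelles, had 11.0 ± 1.41 and 10.6 ± 1.91 CPM (log2 fold change -0.05, 95% interval -0.40 to 0.30) and stood far lower per length, at 32.7 and 32.9 TPM.

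RAB27A (chr15:55202966-55319113), which docks melanosomes, lytic granules and secretory vesicles at the cell periphery, had 23.4, 23.7 and 26.4 CPM against 31.6, 29.6 and 28.8 CPM. The groups did not overlap. The means were 24.5 ± 1.65 and 30.0 ± 1.45 CPM (SD, n = 3), a log2 fold change of 0.29 (SE 0.0840, 95% interval 0.10 to 0.48; edgeR adjusted p = 0.102, and 0.00613 with the block). Its neighbours had a median of 0.08.

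Of the RAB3 genes of regulated exocytosis, RAB3C alone passed a test, with the block. RAB3C (chr5:58582221-58859394) had 127, 148 and 151 CPM against 117, 127 and 125 CPM, so that replicate 2 of the H295R-PM-Ptc+-labelled libraries came up to replicate 1 of the H295R-labelled ones without passing it. The means were 142 ± 12.9 and 123 ± 4.97 CPM (SD, n = 3), a log2 fold change of -0.20 (SE 0.0867; edgeR adjusted p = 0.268, and 0.00490 with the block). RAB3B was the RAB gene on which the replicates differed most in absolute terms, with 325, 527 and 512 CPM in the H295R-labelled libraries and 285, 497 and 530 CPM in the others. Replicate 1 was low in both groups, 0.68 and 0.85 below the mean of replicates 2 and 3 on the log2 scale, a far larger gap than that between the groups. Its log2 fold change was -0.06, with a 95% interval of -0.61 to 0.50. RAB26 was the other member whose replicate 1 stood apart by more than 0.5 in both groups, there on the high side, with 65, 38 and 33 counts against 74, 53 and 30 counts. RAB3A and RAB3D had changes of 0.11 and 0.13 and RAB29 of 0.07, with edgeR adjusted p of 0.847, 0.713 and 0.690.

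**Figure D3:**
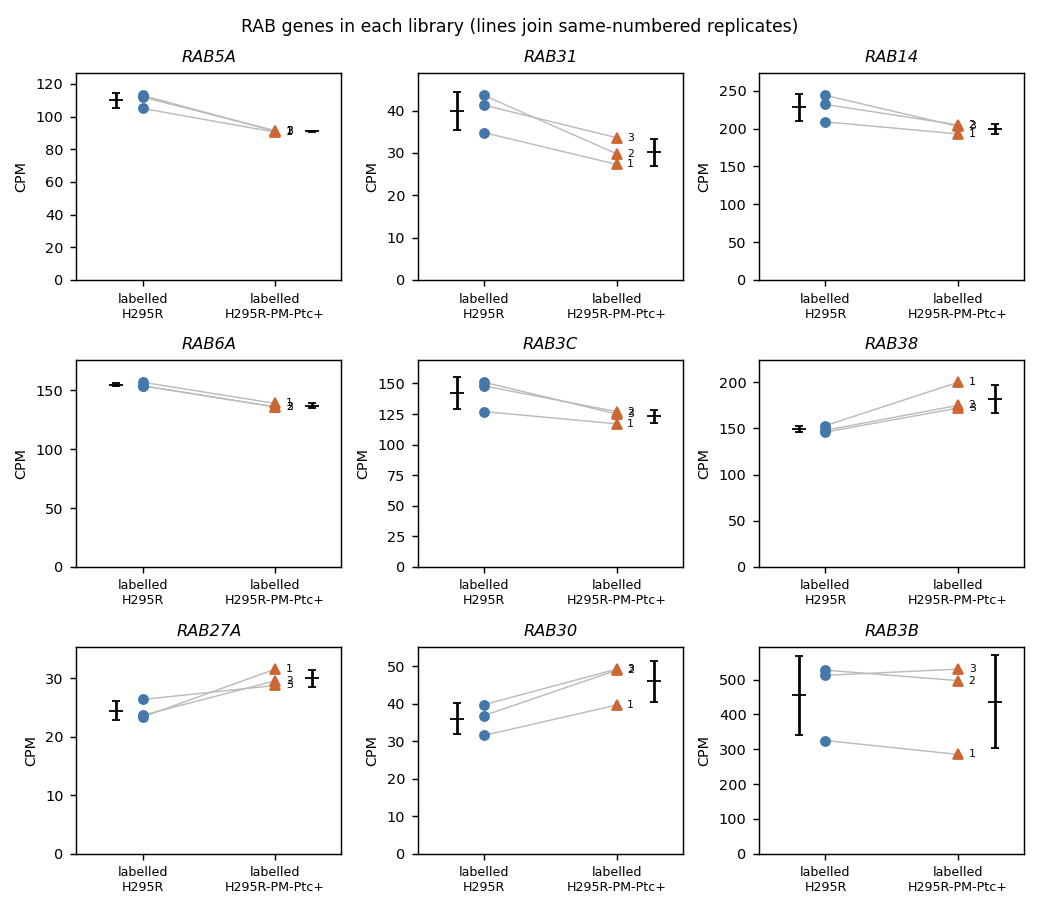
CPM of RAB3B and of the 8 RAB genes with an adjusted p under 0.05 in the fit with the replicate block, in each library (circles labelled H295R, triangles labelled H295R-PM-Ptc+), with lines joining same-numbered replicates, numbers naming the replicate, and bars for the mean and SD of 3 libraries. For all but RAB3B the 3 lines run in 1 direction, and RAB3B shows replicate 1 low in both groups, at 325 and 285 CPM.

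The ER-Golgi and Golgi RABs carry cargo to, through and back from the Golgi. Of 17 genes, 12 were tested, 8 above 0 and 4 below, with a median log2 fold change of 0.04. The abundant RAB1A, RAB1B, RAB2A and RAB18, which run the main traffic of these membranes, lay between -0.07 and 0.06. RAB1A was lower in each library labelled H295R-PM-Ptc+ (130, 131 and 125 CPM against 132, 138 and 136 CPM), by -0.07 on the log2 scale with an edgeR adjusted p of 0.677.

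RAB30 (chr11:82973133-83071923), a Golgi RAB, had 31.6, 36.9 and 39.8 CPM in the H295R-labelled libraries and 39.7, 49.0 and 49.3 CPM in the others. The groups overlapped, since replicate 3 of the first lay just above replicate 1 of the second, but each replicate was higher than its same-numbered partner. The means were 36.1 ± 4.16 and 46.0 ± 5.45 CPM (SD, n = 3), a log2 fold change of 0.35 (SE 0.115, 95% interval 0.09 to 0.61; edgeR adjusted p = 0.150, and 2.91e-04 with the block). RAB30-AS1, which starts beside RAB30 on the opposite strand and shares no bases with it, had 173, 153 and 135 counts against 152, 126 and 94 counts (log2 fold change -0.31, edgeR adjusted p = 0.420).

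RAB6A (chr11:73675638-73761137), which directs retrograde transport to and vesicles from the Golgi, had 157, 154 and 154 CPM against 139, 136 and 136 CPM. The values within each group lay within 4 CPM of each other and the groups did not overlap. The means were 155 ± 1.45 and 137 ± 1.96 CPM (SD, n = 3), a log2 fold change of -0.18 (SE 0.0666, 95% interval -0.33 to -0.03; edgeR adjusted p = 0.208, and 0.00664 with the block). RAB6C, a near-identical copy of RAB6A without introns, had 14, 12 and 21 counts against 4, 8 and 11 counts (log2 fold change -1.01, 95% interval -1.96 to -0.05; edgeR adjusted p = 0.259, and 0.0658 with the block). The deposited counting took multiply mapped reads at their primary position, so reads could be split between the pair and the RAB6C value is uncertain. RAB6B, the form known from neurons, had a change of 0.10 at 4.51 ± 0.189 and 4.82 ± 0.572 CPM.

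The recycling and polarized exocytosis RABs return receptors to the surface and feed exocytosis. Of 13 genes, 12 were tested, 6 above 0 and 6 below, with a median log2 fold change of 0.01 and a range of -0.21 to 0.14. RAB14 (chr9:121178137-121223014), which works between the Golgi, endosomes and the surface, had 209, 232 and 244 CPM against 193, 205 and 203 CPM. The groups did not overlap, although the nearest values lay close. The means were 228 ± 17.5 and 200 ± 6.61 CPM (SD, n = 3), a log2 fold change of -0.19 (SE 0.0813; edgeR adjusted p = 0.275, and 0.00620 with the block). The 100 genes nearest to RAB14 on chromosome 9 had a median change of -0.10, with 75 of them below 0, and the part of this in the RAB14 value was not tested. RAB11A had 424, 446 and 433 CPM against 449, 458 and 459 CPM, a difference of 0.07 on the log2 scale that did not pass the test (edgeR adjusted p = 0.711) although the groups did not overlap. RAB11B, its paralogue, had a change of -0.08 with a 95% interval of -0.34 to 0.19. Its first exons overlap those of the antisense gene RAB11B-AS1, and since the strand setting stated in the methods is opposite to the usual orientation of such kits, reads from that stretch may not be told apart. RAB15, described in neuronal endosomes, had 21.4, 18.3 and 16.8 CPM against 16.3, 16.2 and 16.2 CPM (log2 fold change -0.21, edgeR adjusted p = 0.353), the largest change of a gene outside the 9 on the lower side.

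The late endosome and lysosome RABs had the narrowest range of changes. Of 6 genes, 5 were tested, with a median log2 fold change of -0.00 and a range of -0.13 to 0.02, and none had a p under 0.05. RAB7A changed by 0.02 (95% interval -0.16 to 0.19), RAB9A, of traffic from late endosomes to the Golgi, by -0.00 (-0.21 to 0.21), and RAB39A by -0.13 with the wider interval of -0.52 to 0.25. The remaining 7 genes, with RAB23, a RAB of the primary cilium that restrains Hedgehog signalling, and RAB28, also of the cilium, had 4 members tested, with changes between -0.14 and 0.08. RAB23 had 40.6, 48.5 and 45.6 CPM against 40.2, 40.3 and 43.8 CPM, a log2 fold change of -0.12 (SE 0.0874, 95% interval -0.31 to 0.08; edgeR adjusted p = 0.559). RAB28 had 28.3, 27.4 and 25.5 CPM against 24.8, 24.4 and 24.8 CPM, a log2 fold change of -0.14 (edgeR adjusted p = 0.426), and did not overlap between the groups.

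For the 41 members with an unadjusted p of 0.05 or more, changes ran from -0.21 to 0.23 and the smallest adjusted p was 0.353. Exon overlap was searched across the family on the same strand only, so the doubt on the strand setting given for RAB11B may touch other members. Of the tested members, 9 share exon bases on the same strand with another gene, which can lower or blur their counts. They are RAB43 over 79.3% of its exon length (the read-through gene ISY1-RAB43), RAB24 over 44.8% (MXD3), RAB5C over 28.8%, RAB4B over 20.2% and RAB4A over 19.6%, and RAB8A, RAB40C, RAB27A and RAB3D over smaller shares. RAB43 had 26, 17 and 17 counts against 25, 26 and 19 counts, fewer than the 63, 45 and 49 against 84, 60 and 58 counts of its pseudogene RAB43P1, and its level is therefore uncertain.

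Of the genes that load, switch off and read the RABs, in 4 lists, none had an edgeR adjusted p under 0.05. The machinery of prenylation, escort and GDI had all 8 genes tested, 4 above 0 and 4 below, with a median log2 fold change of 0.02 and none with an unadjusted p under 0.05, against 17.3% of all genes. CHML, the escort protein REP2, had 43.2, 67.4 and 70.1 CPM against 32.5, 52.9 and 52.4 CPM, low in replicate 1 of both groups and lower in all 3 pairs (log2 fold change -0.39, SE 0.218, edgeR adjusted p = 0.415, and 4.94e-05 with the block). Leaving out H295R-PM-Ptc+ replicate 1 gave a change of -0.20, and leaving out H295R replicate 1 gave -0.58. Its relative CHM (REP1) had a change of 0.10 (edgeR adjusted p = 0.572). RABIF, a chaperone of RABs, had 20.7, 21.2 and 22.0 CPM against 18.9, 18.6 and 20.6 CPM (log2 fold change -0.14, edgeR adjusted p = 0.447). With the block the list had 1 gene higher and 1 lower, or 25.0% against the background of 22.5%.

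Of 31 exchange factors 29 were tested, with a median log2 fold change of 0.04 and none with an adjusted p under 0.05, while 2 were higher and 1 lower at an unadjusted p under 0.05, or 10.3% against 17.3% of all genes. ANKRD27 (VARP), the exchange factor of RAB21 and an effector of RAB32 and RAB38, had the smallest p, with 86.3, 82.0 and 80.3 CPM against 66.0, 68.4 and 68.6 CPM. The groups did not overlap, with a log2 fold change of -0.29 (SE 0.0696, edgeR adjusted p = 0.0567, 5.39e-04 with the block and 0.0308 in DESeq2), while 77 of the 100 genes nearest to it on its chromosome also lay below 0, with a median of -0.16. DENND2D, of the DENN domain family of exchange factors, had 4.73, 3.39 and 2.95 CPM against 6.38, 4.99 and 4.54 CPM (log2 fold change 0.53, edgeR adjusted p = 0.233, and 0.00817 with the block). With the block 3 exchange factors were higher and 2 lower, or 17.2% against 22.5% of all genes.

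Of 34 GTPase-activating proteins 32 were tested, with a median of 0.05 and none with an unadjusted p under 0.05, against 17.3% of all genes. TBC1D8 had 35.7, 25.2 and 24.7 CPM against 25.5, 21.8 and 19.9 CPM, overlapping between the groups (log2 fold change -0.35, edgeR adjusted p = 0.300, and 0.00215 with the block), and the change was -0.15 without H295R replicate 1. RABGAP1L had 12.3, 12.4 and 12.0 CPM against 13.3, 14.2 and 14.7 CPM, without overlap (log2 fold change 0.20, edgeR adjusted p = 0.323, and 0.105 with the block). With the block 1 gene of the list was higher and 3 were lower, or 12.5% against 22.5% of all genes.

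Of 43 effectors 38 were tested, with a median of 0.06, none with an adjusted p under 0.05, and 4 higher and 1 lower at an unadjusted p under 0.05, or 13.2% against 17.3% of all genes. With the block the smallest adjusted p in edgeR were those of EHBP1 (8.39e-04), MYO5A (0.00138) and RAB11FIP2 (0.00192). Without it the smallest p in the list belonged to synaptotagmin-like proteins, which bind RAB27 on granules and here lay on opposite sides of 0. SYTL3 had 10, 12 and 9 counts against 24, 26 and 17 counts, a log2 fold change of 1.11 (SE 0.276, edgeR adjusted p = 0.0629, and 0.0155 with the block) at under 1.1 CPM in every library. SYTL4 (granuphilin) had 24.1, 20.6 and 23.3 CPM against 18.2, 17.7 and 18.2 CPM, a log2 fold change of -0.33 (SE 0.0895, edgeR adjusted p = 0.0857, and 0.00312 with the block). SYTL2, the abundant member, had a change of 0.10 (edgeR adjusted p = 0.707). Melanophilin (MLPH), the usual link between RAB27A and myosin, was among the 5 untested effectors. With the block 7 effectors were higher and 6 lower, or 34.2% against 22.5% of all genes.

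**Figure D4:**
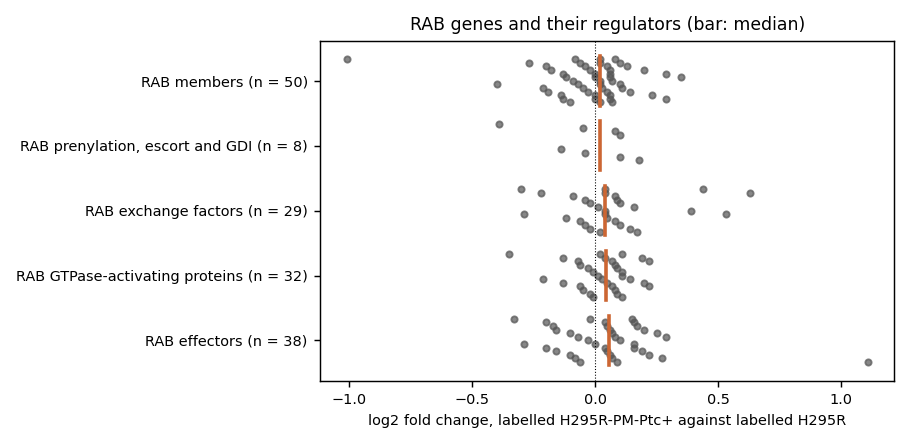
Log2 fold change, H295R-PM-Ptc+-labelled libraries against the H295R-labelled ones, of the 50 RAB genes and of the 4 lists of genes that act on or with RABs, 1 point per tested gene, with a bar at the median of each list. All 5 medians lie between 0.02 and 0.06, and SYTL3 at 1.11 and RAB6C at -1.01 are the points farthest out.

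RAB5A, RAB31 and RAB38 were placed by the study in 1 network module with EHBP1, GAPVD1, EHD3, MYOF and RAB11FIP2. The study describes RAB5A and RAB31 as overexpressed in the sorted population, the reverse of their direction under the deposited names. The module was chosen on these same libraries, so its members' values are not independent evidence of a difference. MYOF (myoferlin), a membrane repair and endocytosis protein, was the only one of the 8 with an edgeR adjusted p under 0.05: it had 20.3, 21.5 and 21.8 CPM against 33.7, 30.8 and 28.7 CPM, which did not overlap (log2 fold change 0.55, SE 0.0873, adjusted p = 0.0106). Without H295R replicate 3 or H295R-PM-Ptc+ replicate 2 its change was 0.56 in both fits, with an edgeR adjusted p of 0.0545 and 0.0520. EHD3, an EH domain protein of recycling endosomes, had a change of 0.45 (edgeR adjusted p = 0.0696) and RAB11FIP2, an effector of RAB11, of 0.27 (adjusted p = 0.104). EHBP1, which links RAB8 family members to actin, had a change of -0.29 (edgeR adjusted p = 0.303), and GAPVD1, an exchange factor of RAB5 and RAB31, of -0.22 (adjusted p = 0.426). At an unadjusted p under 0.05 the module had 4 genes higher and 2 lower, or 75.0% against 17.3% of all genes, and with the replicate block 4 higher and 4 lower, or all 8 against 22.5% of all genes, as read on the libraries that chose it.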

How the data were processed

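Gene counts of 3 libraries labelled H295R and 3 labelled H295R-PM-Ptc+ were analysed. The table the authors deposited holds raw, unfiltered counts: paired reads of stranded libraries were aligned to hg38 with STAR 2.4.0a and counted per gene name with featureCounts (Subread 1.5.0-p3 per the labels) on an Ensembl annotation, with multiply mapped reads taken at their primary position, so near-identical or overlapping RAB genes can share reads. One row without a gene name (0 counts) was left out.

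Counts were normalized with TMM, filtered with filterByExpr and compared by the quasi-likelihood test of edgeR 4.0.16 under R 4.3.3 (two-sided, group as the only term, Benjamini-Hochberg over 16710 genes), after a check on simulated data. Intervals cover the spread between libraries, and floors of 3 counts cover counting error only. Exact two-sided permutation p-values cannot go below 0.1 with 3 against 3 and were not used for calls. TPM used the merged exon length of the deposited annotation on the primary chromosome. Neighbours are the nearest 50 tested genes on each side. Promoters came from RefSeq on GRCh38.p14.

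The members and lists were chosen with earlier results of these data known. Values in every library are given for members with an adjusted p under 0.05 without or with the replicate block, the RAB genes of the study's module, the 5 highest mean TPM, and members detected in 1 group only (those detected in neither by their limit), and for the 2 smallest adjusted p of each list. Other genes were named for their role, their spread or their relation to these, after their values were seen.

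Same-numbered replicates share a code in the labels, and the block pairs the groups by that number. Deviations from the group means correlated at 0.497, 0.307 and 0.228 for same numbers, against -0.352 to 0.15 for different ones. Replicate 1 stood apart most, while replicates 2 and 3 correlated across numbers at 0.15 and 0.109, so their pairing is less clear. Alternatives were the replicate block, DESeq2 1.42.0, limma-voom (limma 3.58.1), relative log expression factors, no filter, a minimum of 10 counts per library for each gene, and omission of each library in turn.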

Additional observations from a re-analysis of the deposited data

How the results depend on the processing

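Refits were made for the counts of calls, the median over the RAB genes and 20 single genes. None of the 20 genes changed direction, and the median, 0.02, lay between -0.00 (without H295R-PM-Ptc+ replicate 1) and 0.02, with no direction. For other genes named with values, the left-out libraries and the other filters and size factors were not examined. The number of RAB genes with an adjusted p under 0.05, 0 in the edgeR fit, was 1 without the filter on low counts (RAB31, adjusted p = 0.0227), 1 in DESeq2 (RAB5A, 0.0411) and 0 to 2 when 1 library was left out, with 2 only without H295R replicate 1 (RAB5A, 0.0412, and RAB31, 0.0214). The number with an unadjusted p under 0.05, 9, ranged from 4 (without H295R-PM-Ptc+ replicate 2, and 5 without replicate 3 of that group) to 12 (without H295R replicate 1). Shares over all tested genes were not taken for the fits with a library left out. Of these counts only the 9 can be set against a background, at 18% against 17.3%. With the replicate block, the pairing raised the calls to 8 RAB genes, 2 prenylation, escort and GDI genes, 5 exchange factors, 4 GTPase-activating proteins, 13 effectors and all 8 genes of the study's module, while the share called over all genes rose from 3.73% to 22.5%. The module, with 1 call in the edgeR fit, had 2 without the filter, 2 in DESeq2, and 0 to 3 when 1 library was left out: 0 without H295R replicate 3 or H295R-PM-Ptc+ replicate 2, and 3 without H295R replicate 1. Exchange factors had 1 call in DESeq2 and 0 to 1 when 1 library was left out (1 without H295R replicate 1). For the 9 RAB genes with an unadjusted p under 0.05, 107 refits were made. In 95 the direction was kept and the adjusted p stayed at 0.05 or more, and in 12 the adjusted p fell under 0.05. Some of the 95 lost the unadjusted threshold: without H295R replicate 3, the edgeR p was 0.136 for RAB3C and 0.152 for RAB14. PTCH1 passed the threshold of adjusted p no longer without H295R replicate 2 (0.0799, log2 fold change -0.78) or 3 (0.0921, -0.74) and without H295R-PM-Ptc+ replicate 2 (0.0618, -0.86), with changes of about the same size as the -0.81 in all libraries. The causes were not tested. With 3 libraries a group, the typical member is known to a standard error of 0.0938 on the log2 scale, and the 13 untested members are limited by depth.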

Other observations

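Other transcripts named after RAB genes were outside the rule and are given as values. RAB11B-AS1, antisense to RAB11B, had 113, 97 and 105 counts in the H295R-labelled libraries and 118, 79 and 87 counts in the H295R-PM-Ptc+-labelled ones (log2 fold change -0.14, edgeR adjusted p = 0.751), and its reads may not be told apart from those of RAB11B. RAB40AL, a copy of RAB40A, had 7, 3 and 4 counts against 3, 3 and 4 counts and was not tested.

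TBC1D5 (chr3:17157162-18444817), a GTPase-activating protein of RAB7 that works with the retromer coat, lies on the same arm of chromosome 3 as RAB5A. It had 164, 184 and 187 CPM in the H295R-labelled libraries and 135, 163 and 165 CPM in the H295R-PM-Ptc+-labelled ones, lower in all 3 pairs with overlapping groups (log2 fold change -0.21, edgeR adjusted p = 0.332, and 0.00273 with the replicate block). The 100 tested genes nearest to it had a median of -0.19 with 75 below 0. RAB4B stood in a stretch of chromosome 19 with the opposite sign: the median of its neighbours was 0.26, with 11 of 100 below 0, and its own log2 fold change was 0.14 (edgeR adjusted p = 0.725).

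Myosin Va (MYO5A), the motor that RAB27A reaches through its effectors, followed the pattern of RAB3B and CHML across replicates, with 50.9, 83.1 and 78.4 CPM in the H295R-labelled libraries and 60.3, 95.7 and 96.4 CPM in the others. It was higher in all 3 pairs (log2 fold change 0.25, SE 0.215, edgeR adjusted p = 0.632, and 0.00138 with the block).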
